A study of Caenorhabditis elegans with 10 samples.

Results

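Accessible chromatin of larval stage 3 (L3) was set against that of the early embryo in the nematode Caenorhabditis elegans, peak by peak. The comparison used 40734 peaks, 13040 in the L3 list and 27694 in the early embryo list, out of 55893 in the lists of all 3 stages. An L3 peak and an early embryo peak were counterparts when at least 0.5 of one of them lay within the other. L3 peaks with no such counterpart are called gained here, early embryo peaks with none are called lost, and the remaining peaks are called shared. These names describe which list holds a peak, and they do not state that a site was closed at the other stage.

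The L3 animals were whole worms of the wild-type strain N2 grown at 20°C and frozen 36 h after the start of egg laying. The early embryos were released from N2 adults by bleaching and frozen. No transgene, mutation or drug separated the stages, and each stage had 3 biological replicates. An input library was made from 10 ng of genomic DNA, and young adults frozen 57 h after the start of egg laying served as a further readout of 15159 peaks. Each stage has 1 list made from its pooled replicates, so no spread between replicates could be given, and intervals below cover counting error only. Whole animals mix all tissues. A smaller share of cells with an open site and a less open site in each cell therefore cannot be told apart.

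Depth differed between the stages. Mapped reads summed to 31282340 in L3, where single libraries ranged between 4025832 and 21160826, and to 102582584 in the early embryo, where they ranged between 29488800 and 37904556. The early embryo thus had 3.28 times the reads of L3. The main comparisons were repeated with the 13040 early embryo peaks of highest −log10 q, so that both lists had the same length. The value −log10 q states the significance of a peak over its local background, not its height. The early embryo list of equal length ended at a −log10 q of 40.5, and the L3 list at 1.75. The share of depth in the results was not otherwise tested.

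In ATAC-seq a transposase cuts DNA that is not wrapped in nucleosomes, and the cuts mark promoters, enhancers and other regulatory DNA. The summit of a peak is the base with most cuts and usually lies close to where regulatory proteins bind. In the early worm embryo cells divide quickly and take on their fates, whereas in the third larval stage most tissues are differentiated, the cuticle is renewed by molting and the germ line and gonad grow. Stages can differ by which sites are open, by where within a site most cuts fall, or by how wide the open stretch is, and these readouts are described in turn.

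Several sites cloned by the study as putative enhancers show how peaks behaved between the stages, so the gene-specific parts of their cloning primers are given here, 5′ to 3′ in lower case, with the shared vector tail of 23 nucleotides removed. The nhr-25 region lies on chromosome X and was a gained peak, the mltn-12 region lies on chromosome IV and was a lost peak, and the hlh-11 and tcc-1 regions lie on chromosomes III and V and were shared. Their peaks are described with the other named loci.
nhr-25 forward: tctacaaagggcgtttttcc
nhr-25 reverse: ttgatcccttccactgttcc
mltn-12 forward: tgatcttcctgattctcctcttg
mltn-12 reverse: agactcgacacgaaggatcaa
hlh-11 forward: tcaagcacaccaggcaatta
hlh-11 reverse: tctactcccgcaatttttgg
tcc-1 forward: agagaaacctggcccaaaac
tcc-1 reverse: cacatttttccggggattt

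Most L3 peaks were already present in the early embryo, whereas most early embryo peaks had no L3 counterpart. Of 13040 L3 peaks 3084 were gained, which is 23.7%, and of 27694 early embryo peaks 17365 were lost, which is 62.7%. With lists of equal length the shares nearly met, as they must when most counterparts are one-to-one. Then 5956 L3 peaks, 45.7%, and 5911 early embryo peaks, 45.3%, had no counterpart. This near-equality follows from the equal lengths, so it cannot show whether more sites were gained or lost. The excess of lost over gained peaks in the full lists went with their unequal lengths. The part of list length in it cannot be told apart from that of depth. Partial overlap was rare in both classes, since 153 gained peaks (4.96%) and 455 lost peaks (2.62%) shared bases with a peak of the other list without reaching the required portion.

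The 6 chromosomes differed by only a few percentage points. In the full lists the gained share was highest on chromosome V, at 27.2% (exact 95% interval 25.3 to 29.1, 609 of 2242 L3 peaks), and lowest on chromosome I, at 19.2% (17.5 to 21.0, 384 of 1999). Chromosomes II, III, IV and X had gained shares of 24.4%, 22%, 23.3% and 24.9%. The same chromosomes stood at the ends with lists of equal length, with 52.2% on V (50.1 to 54.3) and 41.2% on I (39.1 to 43.4).

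Lost peaks followed another order. Chromosome II had the highest lost share, at 64.9% of early embryo peaks (63.6 to 66.3), followed closely by V at 64.2% (62.8 to 65.5) with an overlapping interval. Chromosome IV had the lowest, at 60.4% (58.9 to 61.9). Chromosomes I, III and X had lost shares of 61.6%, 61.5% and 63.0%. Between lists of equal length II stood highest again, at 49.7% (47.6 to 51.8), and chromosomes I, III and IV fell between 42.4% and 42.8%.

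**Figure D1:**
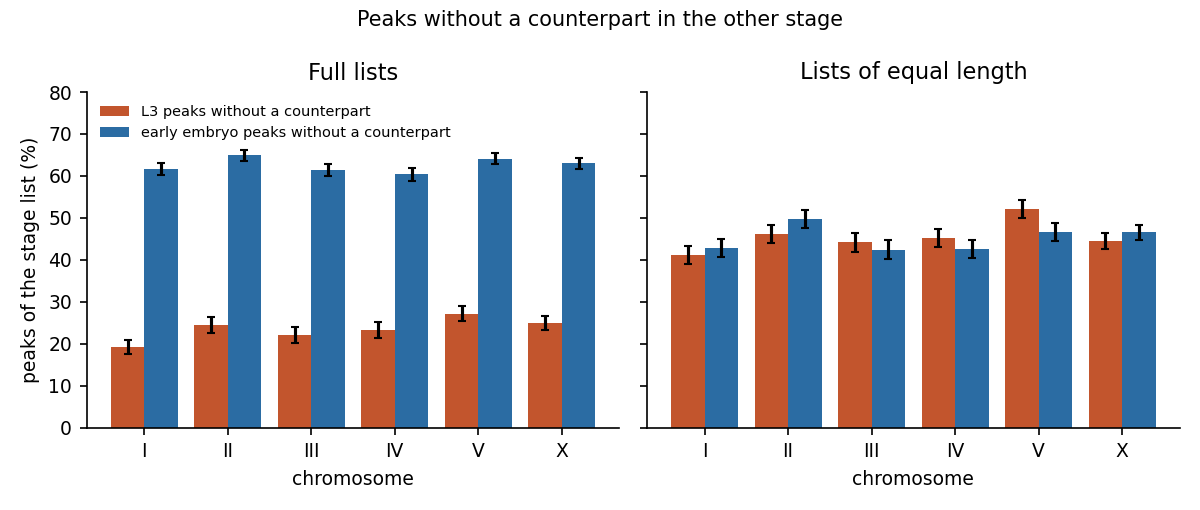
Share of peaks of each stage list without a counterpart in the other list (percent, vertical axis) on each of the 6 nuclear chromosomes (horizontal axis), with L3 bars left of early embryo bars and exact 95% intervals as error bars. In the full lists (left panel) lost shares lie between 60.4% and 64.9% and gained shares between 19.2% and 27.2%, whereas with lists of equal length (right panel) both fall between 41.2% and 52.2%.

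The X chromosome, which is under dosage compensation in hermaphrodites, held 20.9% of L3 peaks and 20.5% of early embryo peaks. Its gained share of 24.9% (23.3 to 26.5) overlapped the autosomal 23.3% (22.5 to 24.2). Its lost share of 63.0% (61.8 to 64.3) likewise overlapped the autosomal 62.6% (62.0 to 63.3). After trimming to equal length X had 44.5% of L3 peaks without a counterpart (42.6 to 46.4) against 46.0% on the autosomes (45.0 to 47.0), and 46.6% of early embryo peaks (44.7 to 48.4) against 45.0% (44.0 to 45.9). The intervals overlapped each time, but overlap is not a test, and X was not tested against the autosomes. The mitochondrial genome had 2 L3 peaks, 1 of them gained, and 5 early embryo peaks, 4 of them lost.

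Over the 5 autosomes together the classes leaned to different parts of the chromosome. Each chromosome was cut into 3 equal parts, since C. elegans autosomes have gene-rich centres and repeat-rich arms. The gained share was 26.0% in the middle part (24.6 to 27.4, 943 of 3630 L3 peaks) and 21.9% in the outer parts (20.9 to 22.9). The lost share was 60.6% in the middle part (59.5 to 61.8, 4303 of 7097 early embryo peaks) and 63.6% in the outer parts (62.8 to 64.3). Gained peaks thus took a larger share in the centres and lost peaks a larger share in the arms. With lists of equal length the same direction was found, at 49.0% in the middle and 44.4% in the outer parts for L3, and at 42.4% and 46.1% for the early embryo.

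Among all chromosome parts the lost share was highest in the first part of II and the last part of V. The first part of II had a lost share of 71.8% (69.6 to 73.9, 1207 of 1681 early embryo peaks), against 61.4% in its middle and 61.0% in its last part. The last part of V had a lost share of 70.3% (67.9 to 72.6), its first part 64.6%, and its middle 57.3% (54.7 to 59.8), the lowest of any chromosome part. The same middle part of V had the highest gained share of any part, at 29.9% (26.9 to 33.1). The lean was not found for both classes on every autosome. Chromosome IV had a lost share of 61.4% in its middle, against 59.0% in its first and 61.3% in its last part. Its gained share was highest in the middle, at 26.9%, against 19.5% in the first and 24.5% in the last part. Chromosome III had lost shares of 61.4%, 62.9% and 60.0% and gained shares of 22.2%, 22.2% and 21.6% in its first, middle and last parts.

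Windows of 1 Mb with at least 50 peaks were ranked as well. Among 98 such windows of the L3 list the highest gained share was 40.5% (31.8 to 49.6, 51 of 126 peaks) in V:5000001-6000000, next came X:6000001-7000000 at 37.7% and V:6000001-7000000 at 34.0% (54 of 159), and the lowest was 8.70% in I:13000001-14000000 (8 of 92). Among 102 windows of the early embryo list the highest lost shares were 77.2% in V:18000001-19000000 (122 of 158), 77.0% in V:17000001-18000000 (157 of 204) and 76.0% in II:2000001-3000000 (218 of 287). The lowest was 49.6% in I:3000001-4000000 (126 of 254). The windows richest in lost peaks thus lay in the outer parts of V and II. Those on V with the highest gained shares lay in its first part, beside the middle part that had the highest share of any part.

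The strongest peaks of a stage were mostly shared. Each list was split by −log10 q into 10 classes of equal size, with class 1 the strongest. In class 1 of L3, 41 of 1304 peaks were gained (3.14%, 2.27 to 4.24), and in class 1 of the early embryo 575 of 2769 peaks were lost (20.8%, 19.3 to 22.3). The lost share then climbed with every further class and reached 84.8% (83.4 to 86.2) in class 10. The gained share took another course. It climbed to 34.0% (31.5 to 36.7) in class 6 and was 24.0% (21.7 to 26.4) in class 10.

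That lower share among weak L3 peaks was found with the full early embryo list alone. When both lists had the same length the gained share climbed throughout, to 72.3% (69.8 to 74.7) in class 10 of L3, and the lost share to 66.3% (63.7 to 68.9) in class 10 of the early embryo. In class 10 of L3, 943 peaks lacked a counterpart among the 13040 top early embryo peaks but only 313 lacked one in the full early embryo list. Weak L3 peaks were in this way matched to a large extent by early embryo peaks of low rank.

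**Figure D2:**
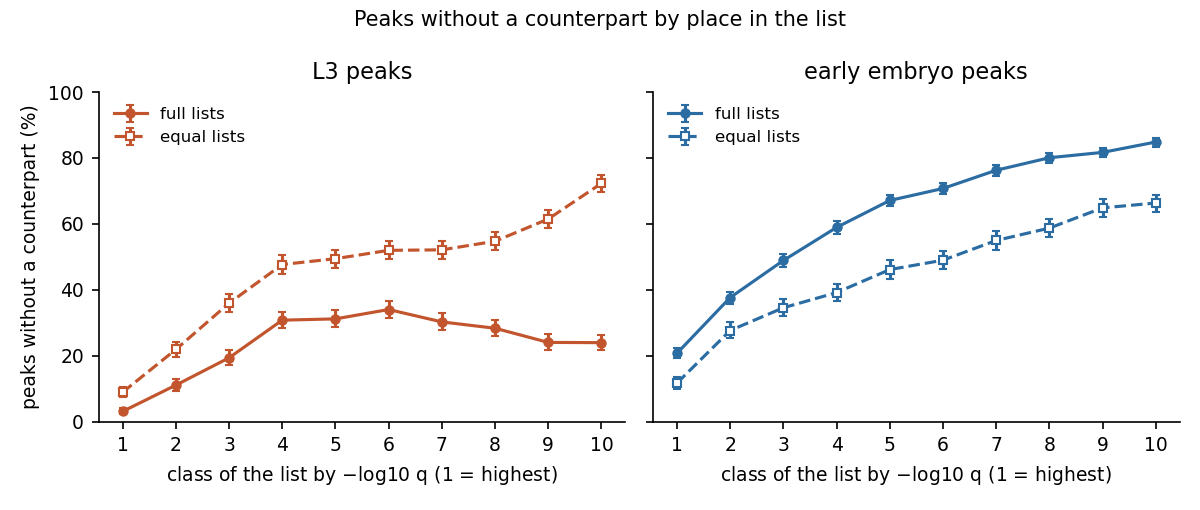
Share of peaks without a counterpart (percent, vertical axis) in each of 10 classes of the stage list by −log10 q (horizontal axis, class 1 is the highest), for L3 peaks (left) and early embryo peaks (right), with exact 95% intervals. Filled circles are the full lists, in which the L3 curve is highest in class 6 at 34.0%, and open squares are lists of equal length, in which both curves climb to class 10.

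Gained and lost peaks were also narrower and lower than shared ones of the same list. Gained peaks had a median width of 267 bp and a median fold enrichment over local background of 2.84, against 293.5 bp and 3.18 for shared L3 peaks. Lost peaks had a median width of 224 bp and a fold of 1.96, against 276 bp and 2.52 for shared early embryo peaks. Fold was compared within a list alone, since its scale depends on the depth of the library.

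The strongest gained peaks nevertheless stood high in the L3 list. The 5 described were chosen by their −log10 q among gained peaks sharing no base with an early embryo peak. The first and the third adjoin each other, at II:11619653-11620013 (fold 5.48, rank 409 of 13040) and II:11620014-11620529 (fold 5.36, rank 448). The others were IV:7319865-7320539 (fold 7.97, rank 439), X:15353624-15354157 (fold 9.02, rank 479) and V:8000839-8001586 (fold 9.97, rank 620). All 5 had a young adult counterpart. Nearest early embryo summits lay between 0.335 and 6.29 kb away, so some of these gained peaks stood next to an early embryo site and some well apart from any.

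The strongest lost peaks stood higher still in their list. They were X:11296900-11297311 (fold 6.50, rank 154 of 27694), X:6622754-6623197 (fold 5.47, rank 210), II:1042096-1042472 (fold 6.83, rank 277), III:10196916-10197266 (fold 7.22, rank 280) and V:12637047-12637542 (fold 8.20, rank 288). All 5 also had a young adult counterpart. Their absence from the L3 list was in this sense not followed by absence at the later stage, and nearest L3 summits lay between 0.39 and 4.78 kb away.

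In peaks paired between the stages the summits mostly lay close together. There were 8964 one-to-one pairs, in which each peak had the other as its only counterpart. The median distance between their summits was 11 bp (order-statistic 95% interval 11 to 12), with quartiles of 5 and 24 bp, and 237 pairs (2.64%) had summits on the same base. Summits lay within 10 bp in 47.1% of pairs, within 50 bp in 91.7% and within 150 bp in 98.9%. No side was favoured, as the L3 summit lay right of the early embryo summit in 4324 pairs and left of it in 4403, with a median signed difference of 0 bp. A distance of 150 bp is about the length of DNA wrapped on a nucleosome, and 99 pairs (1.10%) exceeded it. The overlap rule itself limits this distance, since the paired peaks had median widths of 290 bp in L3 and 280 bp in the early embryo. A site that moved further could be counted as lost and gained instead, so the rarity of large distances is partly set by the rule.

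**Figure D3:**
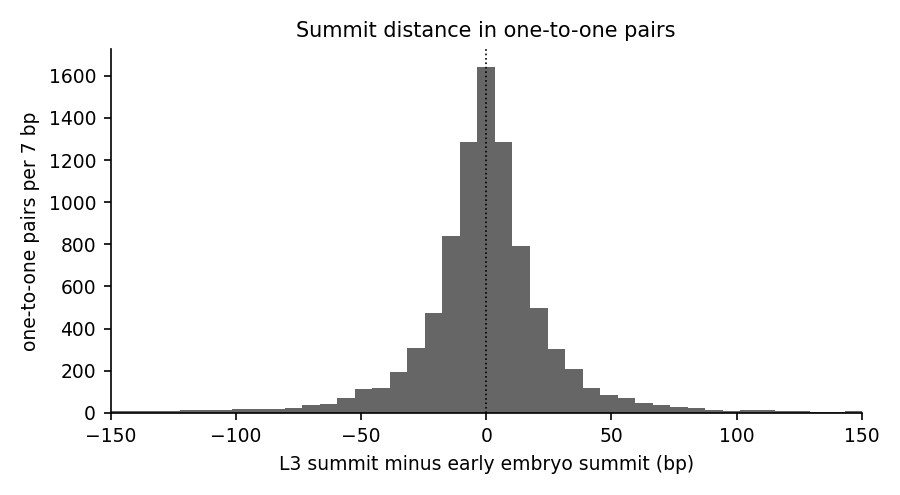
Number of one-to-one pairs (vertical axis, per 7 bp) by L3 summit position minus early embryo summit position (horizontal axis, bp), for the 8865 pairs within 150 bp. The distribution is centred on 0 and symmetric, with 47.1% of the 8964 pairs within 10 bp.

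Summit distance grew as peaks became weaker. Pairs were split into 5 classes of equal size, and by L3 −log10 q, strongest class first, the median was 10, 10, 11, 12 and 14 bp. By early embryo −log10 q it was 9, 9, 11, 13 and 18 bp, and the share within 10 bp was 54.6% in the strongest and 33.5% in the weakest class. Medians were 11 to 13 bp on every chromosome. X had the largest median, 13 bp (12 to 13), and the smallest share of pairs within 10 bp, 43.2%. At equal list length the median over 6509 pairs was 10 bp.

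Other stages gave a scale for this distance. One-to-one pairs of young adult and L3 peaks had a median distance of 8 bp (8 to 8, 8562 pairs) and young adult and early embryo pairs one of 11 bp (11 to 12, 9795 pairs). These comparisons share lists and were not tested against each other. The most distant L3 and early embryo pairs lay at IV:4526141-4526420 (405 bp apart, L3 rank 12796), III:13690246-13690555 (397 bp, L3 rank 11801) and I:7475445-7475837 (334 bp, L3 rank 4741). In the pairs on III and I both peaks adjoined a neighbour.

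Pairs outside the one-to-one class behaved differently. The 1584 pairs in which a peak had several counterparts had a median summit distance of 75.5 bp (64 to 90), and 34.7% of them exceeded 150 bp. Such pairs set a single peak against several, of which at most 1 can hold the same summit.

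The width of shared peaks differed little at the median. L3 peaks of the one-to-one pairs had a median width of 290 bp and early embryo peaks one of 280 bp, and the median of the paired differences, L3 minus early embryo, was 6 bp (5 to 8) with quartiles of −34 and 60 bp. The L3 peak was wider in 4860 pairs (54.2%), narrower in 3905 (43.6%) and equally wide in 199. In 41.2% of pairs the L3 peak contained the whole early embryo peak, and in 30.1% it lay inside it. In the lists of equal length the median difference was 2 bp (0 to 4).

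This small median hid a strong dependence on peak strength. In the class of pairs with highest L3 −log10 q the L3 peak was wider by a median of 42 bp (38 to 47), and the early embryo peak lay wholly inside it in 62.1% of pairs. In the class with lowest L3 −log10 q the median difference was −25 bp (−29 to −22), and the L3 peak lay wholly inside the early embryo peak in 50.3%. Ordered by early embryo −log10 q the trend turned round, with −6 bp (−9 to −4) in the strongest and 35 bp (31 to 39) in the weakest class. The lean was stronger for L3. In its strongest class the L3 peak was the wider one in 75.2% of pairs, whereas in the strongest early embryo class the early embryo peak was the wider one in 54.1%, and in the next early embryo class the median difference was 0 bp (−2 to 4). The width of a called peak and its −log10 q come from the same signal, so this is a description of the lists and not an independent result.

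**Figure D4:**
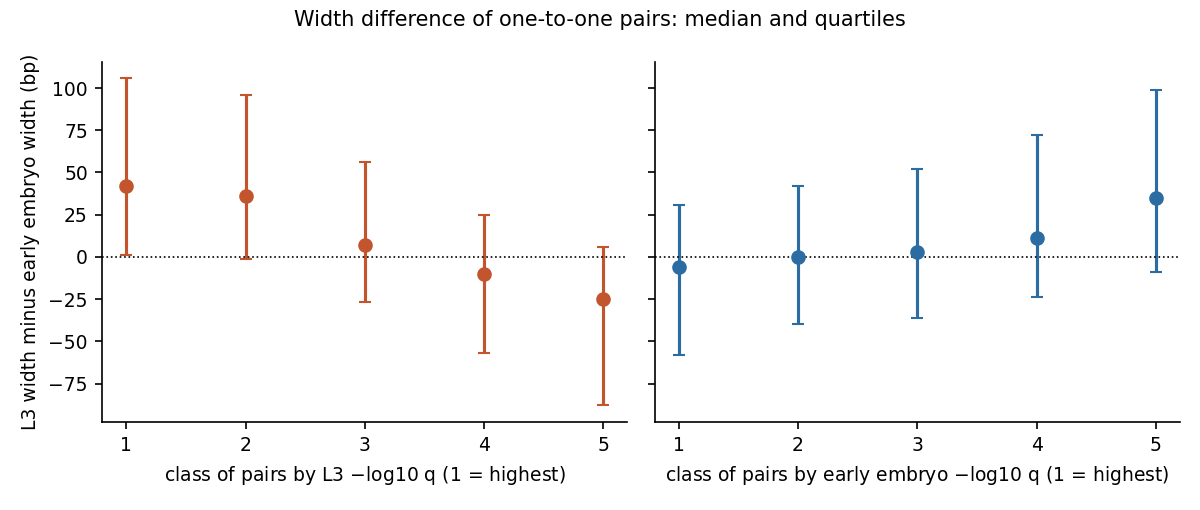
Width of the L3 peak minus width of its early embryo counterpart (bp, vertical axis) in 5 classes of the 8964 one-to-one pairs by L3 −log10 q (left) or by early embryo −log10 q (right), where class 1 is the highest. Points are medians and bars run between the quartiles. Medians fall to −25 bp in the weakest L3 class and reach 35 bp in the weakest early embryo class.

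A width ratio of at least 1.5 was found in favour of L3 in 1004 pairs (11.2%) and in favour of the early embryo in 638 (7.12%). The largest widening was at X:2598446-2599420, where the L3 peak was 975 bp wide and its early embryo counterpart 381 bp, with summits 32 bp apart. At X:1063817-1064565 the L3 peak spanned 749 bp around an early embryo peak of 172 bp, with summits 11 bp apart. At V:14366416-14367113 it spanned 698 bp, against 172 bp in the early embryo.

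The largest narrowing was at III:3623858-3624180, with 323 bp in L3 and 875 bp in the early embryo. At X:16178008-16178224 the L3 peak spanned 217 bp, against 703 bp in the early embryo. At IV:3567066-3567505 it spanned 440 bp, against 921 bp. In these 6 pairs summits lay 11 to 53 bp apart, so the edges of the peaks differed while the summits remained close.

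The number of sites with a single peak at one stage and several at the other depended on the overlap rule. Of 9956 shared L3 peaks 568 had 2 or more early embryo counterparts (5.71%, 5.26 to 6.18), made up of 545 with 2, 22 with 3 and 1 with 4. Of 10329 shared early embryo peaks 211 had 2 or more L3 counterparts (2.04%, 1.78 to 2.33), made up of 203 with 2 and 8 with 3. An overlap of 1 bp raised these numbers to 1829 and 1225, and an overlap of 0.5 of both peaks left 1 and 0. With lists of equal length the numbers came closer, at 223 of 7084 (3.15%, 2.75 to 3.58) and 174 of 7129 (2.44%, 2.1 to 2.83). The intervals overlapped slightly, and these shares were not tested against each other.

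Divided sites were wide, in part by the overlap rule, since a wide peak can more easily meet several counterparts. The L3 peaks with several early embryo counterparts had a median width of 478 bp, against 287 bp for those with 1, and the early embryo peaks with several L3 counterparts had 447 bp, against 274 bp. In 87.7% of cases in either direction all pieces adjoined each other, as the lists write a called region that was split between its summits. The single peak was itself unsplit in 408 of 568 L3 cases (71.8%) and in 140 of 211 early embryo cases (66.4%), and in the others it was a piece of a split region. Summits of pieces lay a median of 173 bp apart (quartiles 126 and 211.5) where the L3 site was divided, and 199 bp apart (156 and 245) where the early embryo site was.

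The peak with most counterparts was an L3 peak at II:15212245-15212972, 728 bp wide, that faced 4 adjoining early embryo peaks of 160 to 192 bp. The first of these had the highest fold, 2.82, and the third the lowest, 1.63. An L3 peak at IV:10821749-10822496, ranked 9 in its list, faced 3 early embryo peaks with folds of 6.73, 2.22 and 1.76, so 1 strong summit was accompanied by low shoulders. At I:4297762-4298680 an L3 peak of fold 14.4 faced 3 early embryo peaks, of which the middle had the highest fold, 9.04.

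In the other direction an early embryo peak at X:2368162-2369137, 976 bp wide and ranked 5, faced 3 L3 peaks with folds of 3.86, 8.40 and 3.42. At X:16612117-16612968 the early embryo peak, ranked 10, faced 3 L3 peaks that themselves ranked 5, 11 and 105 of 13040, so several strong L3 summits stood where the early embryo list had 1. At III:8417130-8417993 the L3 pieces ranked 296, 124 and 103.

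In the full lists gained peaks were sparse and lost peaks dense. A gained peak lay a median of 6007 bp (5344 to 6573) from the nearest other gained peak, against 1339 bp (1264 to 1406) between neighbouring shared L3 peaks. A lost peak lay a median of 895 bp (866 to 922) from the nearest other lost peak, against 1090 bp (1030 to 1148) between shared early embryo peaks. Under 1 kb were 23.3% of the gained and 53.0% of the lost peaks. The spacing of a class depends on its size. After trimming to equal length, where the classes had 5956 and 5911 members, the medians were 2613 bp (2437 to 2770) for gained and 2592 bp (2455 to 2784) for lost peaks. Shared peaks then lay 2157 bp (2026 to 2308) apart in L3 and 2091 bp (1935 to 2217) apart in the early embryo. The order of lost and shared early embryo peaks thus turned round, and so did the order of their class sizes. Lost against shared early embryo peaks numbered 17365 against 10329 in the full lists and 5911 against 7129 at equal length. Whether their spacing differed beyond class size was not tested.

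**Figure D5:**
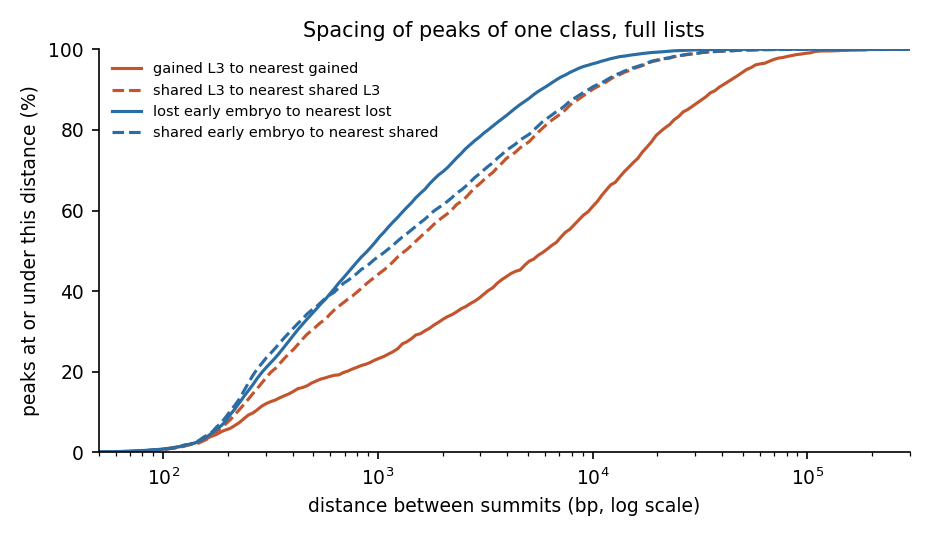
Cumulative share of peaks (percent, vertical axis) by distance to the nearest summit of the same class (bp, logarithmic horizontal axis) in the full lists, for gained and shared L3 peaks and for lost and shared early embryo peaks. Above about 200 bp the gained curve lies to the right of the others, with a median of 6007 bp, and the lost curve has a median of 895 bp.

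Gained peaks lay closer to peaks of the other stage than lost peaks did, with the early embryo list being the denser one. The nearest early embryo summit of any class was a median of 1393 bp away (1322 to 1458), and in 39.9% it was nearer than 1 kb. For lost peaks the nearest L3 summit was a median of 2665 bp away (2593 to 2733), and in 26.7% it was nearer than 1 kb. This difference shrank with lists of equal length, to 2360 bp (2236 to 2456) and 2739 bp (2636 to 2883).

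Peaks of one class tended to follow each other along the chromosome. After a gained peak the next L3 peak was gained in 32.7% of cases (31.0 to 34.4), and after a shared one in 20.9% (20.1 to 21.7). After a lost peak the next early embryo peak was lost in 69.4% (68.8 to 70.1), and after a shared one in 51.4% (50.4 to 52.4). Leaving out neighbours that adjoin, and so belong to 1 divided region, the shares were 30.3% and 22.3% in L3 and 68.2% and 57.4% in the early embryo. When the lists had equal length, neighbours that adjoin left out, they were 51.7% and 41.1% in L3 and 51.9% and 42.4% in the early embryo. Neighbours also share their distance from chromosome centres, whose part in this was not tested.

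Runs of one class were counted in the combined order of both lists, where a shared peak of either stage ends a run. Most gained peaks stood alone, as 1828 of 3084 (59.3%) had no gained neighbour in that order, and the longest run held 6. It spanned 14.7 kb between its outer summits on chromosome V (V:14919254-14934250). Runs of 5 followed at IV:11956301-11962275, over 5.7 kb, and X:6743897-6749997, over 5.79 kb. The young adult list had 2, 3 and 4 peaks in these spans, so each of them was at least in part accessible in the adult.

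Lost peaks came in far longer runs, as their greater number allows. Runs of at least 5 held 8012 of 17365 (46.1%), and 200 runs had at least 10. The longest, 27 lost peaks over 127 kb at X:1660118-1787189, held no shared or gained peak, and the young adult list had 4 peaks there. Runs of 25 and 24 lay on the arm of chromosome II that had the highest lost share, at II:2077307-2169025 (91.3 kb) and II:1666957-1710078 (42.9 kb), with 3 and 6 young adult peaks.

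The young adult list, which took no part in the pairing, was read for each class. Of gained peaks 53.8% had a young adult counterpart (52.0 to 55.6, 1660 of 3084), against 78.6% of shared L3 peaks (77.8 to 79.4). Of lost peaks 18.8% had one (18.2 to 19.4, 3267 of 17365), against 78.3% of shared early embryo peaks (77.5 to 79.1). A gained peak was thus more often present in the young adult list than a lost one. Mapped reads summed to 42750742 in the young adult, fewer than in the early embryo. Whether lost peaks fell below detection in the young adult was not tested. For lists of equal length from all 3 stages the shares were 53.6% and 18.0%.

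Peak strength mattered for gained peaks and less for lost ones. Gained and lost peaks were each split by −log10 q into 5 classes of equal size. In the strongest class of gained peaks 88.1% had a young adult counterpart (85.3 to 90.6) and in the weakest 32.1% (28.4 to 35.9). In the strongest class of lost peaks 22.5% had one (21.1 to 23.9) and in the weakest 15.7% (14.5 to 17.0). Even the strongest class of lost peaks, ranked among lost peaks alone, was therefore mostly absent from the young adult list. The 5 lost peaks named above for their strength were present in it.

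Chromosome X was the lowest in this readout. On X 48.5% of gained peaks (44.6 to 52.3) and 14.5% of lost peaks (13.3 to 15.7) had a young adult counterpart, whereas on the autosomes the shares lay between 52.9% and 57.8% for gained and between 18.4% and 20.9% for lost peaks. For lost peaks the interval on X lay below that of every autosome. For gained peaks it overlapped those of I, II, III and V, and not that of IV (53.2 to 62.4). The chromosomes were not tested against each other. Shared peaks on X were close to the whole, at 78.6% for L3 and 78.1% for the early embryo.

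Absence of a peak from a list can also come from the filters applied after peak calling, and the numbers that the peak caller gave to its regions bear on this. The numbers run in the order of the genome, reach 26702 in L3 and 40845 in the early embryo, and 11358 (42.5%) and 24053 (58.9%) of them are left. A gap in the numbers between neighbouring peaks therefore shows that at least 1 called region, or 1 piece of a divided region, was removed between them. Of 2931 gained peaks that shared no base with an early embryo peak, 2382 (81.3%, 79.8 to 82.7) lay between early embryo peaks with such a gap, and 477 (16.3%, 15.0 to 17.7) lay where the numbers leave no removed region. Of all bases between neighbouring early embryo peaks 71.1% lie in intervals with a gap.

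The same was true of lost peaks. Of 16910 that shared no base with an L3 peak, 15246 (90.2%, 89.7 to 90.6) lay in a gap of the L3 numbers and 1381 (8.17%, 7.76 to 8.59) where no L3 region had been removed. Of all bases between L3 peaks 84.7% lie in intervals with a gap. The numbers give no position for what was removed, so whether it lay at the gained or lost peak was not tested. All of the 5 gained and 5 lost peaks named above for their strength lay in such gaps. Lost peaks with no L3 region removed had a young adult counterpart in 7.17% (5.86 to 8.66), and those in a gap in 19.5% (18.8 to 20.1).

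Named loci showed each class. The study listed 27 distinct putative regulatory regions, many with edges that coincide with those of these peaks, so their stage is a property of how they were chosen. Of them 9 held peaks of L3 and of the early embryo, 4 held L3 peaks alone, 7 held early embryo peaks alone and 7 held neither. The last were both regions of dcs-1 and those of Y40C5A.3, Y73B6A.1, csn-3, F23C8.13 with zwl-1, and bed-1. All positions are in ce10 coordinates.

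Gained peaks were found in the regions of 4 genes. At nhr-25, a nuclear hormone receptor gene needed for molting and epidermal development, the listed interval X:13014304-13014628 was an L3 peak of fold 2.68, ranked 9009 of 13040. In the interval plotted around nhr-25, X:13007000-13016000, 3 of 4 L3 peaks were gained and 4 of 5 early embryo peaks were lost. The only pair had an L3 peak of 782 bp, against 441 bp in the early embryo, with summits 50 bp apart. At lon-8, a gene that affects body length, and Y59A8B.19, a pair of adjoining gained peaks filled V:18003711-18004420 with folds of 3.20 and 3.18. At C54G6.3 and C54G6.2 the gained peak I:998886-999818 was 933 bp wide with a fold of 5.98 and rank 1143, and at Y48G8AL.15 the gained peak I:1255919-1256385 had a fold of 3.78. Of these only the peak at C54G6.3 had a young adult counterpart.

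Lost peaks were found in the regions of 7 genes. At best-10, of the bestrophin channel family, the early embryo peak I:14211136-14211489 had a fold of 4.88 and rank 1167 of 27694. At C45G7.4 the early embryo peak IV:2426511-2426916 had a fold of 4.36, and at cutl-16, a cuticlin-like gene, II:6436807-6437219 had a fold of 3.91. At ergo-1, which encodes an Argonaute protein of small RNA pathways, a pair of adjoining lost peaks had folds of 2.61 and 2.66, and at K12C11.3 there were 3 lost peaks with folds of 1.87 to 2.16. At mltn-12 the lost peak IV:8994596-8994874 had a fold of 2.81, and at jmjd-3.1, which encodes a histone demethylase, X:8575917-8576173 had a fold of 2.49. The peaks at ergo-1, mltn-12 and jmjd-3.1 had young adult counterparts, whereas those at best-10, C45G7.4, cutl-16 and K12C11.3 had none.

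Several shared sites had close summits and a wider peak in L3. At lin-41, a heterochronic gene that controls the timing of larval development, the L3 peak I:9343583-9344364 ranked 8 of 13040 and was 782 bp wide, and its early embryo counterpart ranked 2631 of 27694 and was 518 bp wide, with summits 21 bp apart. At hlh-11, a basic helix-loop-helix transcription factor gene, the L3 peaks ranked 16 and 136, and their early embryo counterparts ranked 9956 and 14300. Summits at hlh-11 were 11 and 63 bp apart, and the L3 peaks were wider by 201 and 65 bp. At tcc-1 the L3 peak ranked 46 and was 546 bp wide, and its early embryo counterpart ranked 4541 and was 367 bp wide. A site can thus be shared by the overlap rule and still stand at very different places in the lists of the stages.

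The plotted interval of daf-12, a nuclear receptor gene of dauer and developmental timing decisions, held 10 L3 peaks, of which 2 were gained, and 15 early embryo peaks, of which 6 were lost. In 8 of its 9 pairs the L3 peak was the wider one, counting 2 pairs that set the same L3 peak against adjoining early embryo peaks. The widest difference was at X:10637376-10638198, where the L3 peak exceeded the early embryo peak by 476 bp with summits 14 bp apart, and ranked 133, against 19059 in the early embryo list. At swip-10 both pairs were wider in L3, by 140 and 114 bp, with summits 27 and 2 bp apart.

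The plotted interval of kin-1, the gene of the catalytic protein kinase A subunit, held 14 L3 peaks and 11 early embryo peaks, of which 5 were gained and 1 was lost. The peaks at I:14924541-14924735 and I:14924736-14925001 were adjoining gained peaks of fold 4.89 and 5.21. One L3 peak there, I:14946017-14946512, faced 2 early embryo peaks, with summits 51 and 166 bp away. The caveolin gene cav-1 showed the opposite balance, with 1 L3 peak and 6 early embryo peaks, of which 5 were lost. Its shared L3 peak, IV:9772141-9772391, ranked 10038 of 13040 and was 251 bp wide. The early embryo counterpart ranked 122 of 27694 and was 476 bp wide, and the summits were 2 bp apart.

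At gei-13 the plotted interval held 9 L3 peaks, 2 of them gained, and 14 early embryo peaks, 6 of them lost. At mlt-8, a gene named for its part in molting, it held 2 L3 peaks, 1 of them gained, and 4 early embryo peaks, 3 of them lost. The listed regions of these genes held pairs with summits 2 and 11 bp apart, in which the L3 peak was wider by 128 bp at C15H7.3 and gei-13 and by 106 bp at W08F4.7 and mlt-8. At Y17D7C.1 the L3 peak was instead narrower, with 196 bp in L3 and 221 bp in the early embryo, and summits 5 bp apart. The second C54G6.3 region, I:1000922-1001216, held a pair with summits 6 bp apart, ranked 1303 in L3 and 1318 in the early embryo.

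The 5 pairs that ranked best at both stages had close summits as well. The first, at IV:16491500-16492120 in L3, ranked 4 in L3 and 2 in the early embryo, was 621 bp wide in L3 and 625 bp in the early embryo, and its summits were 1 bp apart. Adjoining pairs at IV:14033233-14033561 and IV:14033562-14034074 ranked 3 and 6 in L3 and 4 and 9 in the early embryo, with summits 21 and 26 bp apart. The others, IV:13887184-13888045 and I:12736533-12737077, had summits 20 and 21 bp apart. In all 5 the L3 peak had a young adult counterpart.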

How the data were processed

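The authors mapped paired-end ATAC-seq reads to the genome build ce10 with Bowtie2 2.1.0, removed duplicates with Picard and called peaks with MACS, then filtered peaks by agreement between replicates, input signal and known problem regions. They deposited 1 list per stage. For each peak the deposited lists give position, summit, a score for display, a fold enrichment (ratio to the local background) and −log10 q. Score and the −log10 p that is also given were not used, and fold and −log10 q were used within a list alone.

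Counterparts needed an overlap of at least 0.5 of either peak. Shares have exact (Clopper-Pearson) 95% intervals and medians order-statistic intervals. They cover counting error only, since pooled lists have no replicate error. Distances run between summits, and chromosome parts use the largest peak end as length. The reading of the peak caller's region numbers and the classes by −log10 q were added after seeing the data. Library totals came from the study's read table, since the lists hold no reads. The young adult list entered only as a further readout.

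Named were the study's listed regions and plotted intervals, 5 gained and 5 lost peaks highest in −log10 q sharing no base with the other list, 5 pairs best in summed rank, 3 pairs each of largest widening, narrowing and summit distance, 3 peaks of each list with most counterparts, 3 longest runs of each class, and 1 Mb windows of highest share. The comparison, members and lists were chosen with earlier results of these data known.

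All 37 gene names looked up matched the WBcel235 RefSeq gene table, used for names alone because its build differs. No ce10 genome or annotation was used here, so exon or intron position and motifs were not analysed. Primers came from the study's supplementary table. Alternatives were equal lists by −log10 q or fold, an overlap of 1 bp, an overlap of 0.5 of both peaks, −log10 q of at least 5, joined neighbours, all pairs, and pairs without adjoining peaks. Python 3.11.15, pandas 2.3.3, numpy 2.4.6, matplotlib 3.10.9 and scipy 1.17.1 were used. The code was tested on simulated data, and its shared counts differed from those of bedtools 2.31.1 by 0.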

Additional observations from a re-analysis of the deposited data

How the results depend on the processing

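Of 57 values recomputed under alternatives for 12 results, 26 stayed within 1.5 times the count or within the interval first given, and 31 moved. None changed sign. With equal lists by −log10 q, gained peaks numbered 5956, lost 5911, L3 peaks with several counterparts 223, median summit distance was 10 bp and width difference 2 bp. Gained spacing was 2613 bp, lost spacing 2592 bp, the X shares were 44.5% (L3) and 46.6% (early embryo), and 18.0% of lost peaks had a young adult counterpart. Equal lists by fold gave 5951, 5908, 217, 10 bp and 2 bp for the first 5 of these. An overlap of 1 bp gave 1829 L3 and 1225 early embryo peaks with several counterparts and a lost share on X of 61.5%. An overlap of 0.5 of both peaks gave 1 and 0 by its construction, X shares of 32.6% (L3) and 67.7% (early embryo), spacings of 4295.5 bp (gained) and 831 bp (lost), and young adult shares of 51.7% (gained) and 17.5% (lost). Joining adjoining peaks left 271 L3 and 140 early embryo peaks with several counterparts and a width difference of 4 bp. All shared pairs had a median summit distance of 13 bp, and pairs without adjoining peaks a width difference of 9 bp. The −log10 q minimum of 5 moved none of the 8 results it was run on. It left 13004 L3 and 27607 early embryo peaks, nearly the full lists, so it could hardly have moved them. Beyond construction, the cause was not tested. No paired analysis was possible because each stage has 1 pooled list with no replicate columns, and for the same reason no replicate could be left out. A site missing from a list may lie below detection at that stage's depth, which was not tested.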
